A study of Homo sapiens with 4 samples.

Results

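The terminal 5 Mb of the short arm of chromosome 16, within band 16p13.3, was examined in Micro-C contact maps of SH-SY5Y cells with and without knockdown of TDP-43. The region was taken as every listed pair of 50 kb bins (hg38) with both bin middles on chromosome 16 below 5 Mb. This gave 403 of the 89239 pairs in the table, 94 of them contacts within a single bin and 309 contacts between different bins. The region was chosen by its values in these libraries, the knockdown and control contact counts, which were already known to be lower in the knockdown. Every difference between knockdown and control below therefore describes the region and is no test of it.

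Micro-C cuts chromatin with micrococcal nuclease and ligates neighbouring fragments, and a count is a ligation between 2 places. SH-SY5Y is an established human neuroblastoma line. There were 2 libraries with the genotype label control and 2 labelled TDP-43 knockdown, and TDP-43, the product of TARDBP, binds RNA and DNA. Per the labels' protocols, hairpin RNAs (shNC and shTDP-43) were delivered by lentivirus from a U6 promoter vector, and puromycin selected the stable knockdown cells (2 weeks at 2 µg/mL, then 1 µg/mL for upkeep). The same puromycin protocol is listed for every library, controls included. It speaks of knockdown cells, so the controls' treatment rests on that listing. Which hairpin the control libraries carried is not tied to a library, nor is it said whether the lines are clones. Whether the 2 libraries of a group came from separate cultures is not said either, so their spread may be technical. A contact map does not measure TARDBP RNA and gives no check of the knockdown.

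Band 16p13.3 is a gene-dense, GC-rich chromosome end. It holds the alpha-globin cluster near the telomere, the adjoining tumour suppressor gene TSC2 and polycystin gene PKD1, and CREBBP, which encodes a histone acetyltransferase and transcriptional coactivator. Contacts within a bin report how often near fragments ligate, while contacts between bins become rarer with distance and reflect folding into loops and domains.

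The region has 184 named protein-coding genes in the RefSeq annotation of GRCh38.p14, of which 176 overlap a bin with listed within-bin contacts. Within-bin contacts of 6 of its 100 bins were not analysed here. They are the bins from 400001 to 500000, with DECR2, and from 4300001 to 4500000, with GLIS2, PAM16 and DNAJA3. Region counts summed to 1341376 and 1477915 contacts in control libraries 1 and 2, and to 829487 and 1052956 in knockdown libraries 1 and 2. A between-bin pair had a median of 475 contacts per library and a within-bin contact a median of 9167, so a between-bin pair carries the larger counting error.

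Promoter sequence was available for 177 genes of the region in the RefSeq promoter table (250 bases before to 50 after the start site, GRCh38.p14). The median promoter held 32 CpG dinucleotides at 69.7% GC, against 14 CpG and 58.7% GC over all 35116 promoters of the table. The G-quadruplex pattern (4 runs of at least 3 G with loops of 1 to 7 bases, either strand) was in 39.0% of them and in 25.0% of all promoters. The motif TGTGTG, a short form of the UG repeat that TDP-43 binds in RNA, was in 9.04% on either strand, against 17.2% of all promoters. These are counts of letters and not binding sites. The region's promoters are those of protein-coding genes, while the full set was not limited to these. Gene type and region therefore cannot be told apart in these contrasts. The promoters below come from the bins on which the contact results turn, printed with CpG dinucleotides in capitals. GNPTG (chr16:1351681-1351980, plus strand; subunit of the enzyme that tags lysosomal hydrolases) and JPT2 (chr16:1678029-1678328, plus strand) start in the bins of the pair with the largest fall. CCNF (chr16:2429197-2429496, plus strand; cyclin F) starts in a bin of the between-bin pair that rose, and CREBBP (chr16:3880664-3880963, minus strand) in a stretch with few called pairs.
GNPTG: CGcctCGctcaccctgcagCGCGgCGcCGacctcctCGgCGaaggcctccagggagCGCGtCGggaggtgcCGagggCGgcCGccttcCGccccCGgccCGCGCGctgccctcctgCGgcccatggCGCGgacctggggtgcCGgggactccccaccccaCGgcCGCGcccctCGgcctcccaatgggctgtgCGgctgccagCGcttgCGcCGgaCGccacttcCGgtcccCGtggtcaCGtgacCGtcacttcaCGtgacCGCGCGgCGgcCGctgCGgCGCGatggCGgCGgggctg
JPT2: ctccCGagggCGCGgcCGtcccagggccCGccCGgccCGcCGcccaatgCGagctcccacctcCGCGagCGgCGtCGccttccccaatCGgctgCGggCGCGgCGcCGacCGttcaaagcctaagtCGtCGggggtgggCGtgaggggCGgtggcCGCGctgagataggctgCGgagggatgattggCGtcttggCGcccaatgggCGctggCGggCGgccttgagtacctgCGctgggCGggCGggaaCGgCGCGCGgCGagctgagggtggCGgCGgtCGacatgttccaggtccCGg
CCNF: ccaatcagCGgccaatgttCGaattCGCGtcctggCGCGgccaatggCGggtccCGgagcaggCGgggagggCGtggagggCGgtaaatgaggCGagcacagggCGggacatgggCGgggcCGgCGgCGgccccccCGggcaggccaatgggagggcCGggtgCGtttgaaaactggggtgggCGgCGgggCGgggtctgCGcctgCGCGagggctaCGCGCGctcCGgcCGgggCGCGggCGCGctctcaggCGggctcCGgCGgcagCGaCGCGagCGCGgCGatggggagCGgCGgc
CREBBP: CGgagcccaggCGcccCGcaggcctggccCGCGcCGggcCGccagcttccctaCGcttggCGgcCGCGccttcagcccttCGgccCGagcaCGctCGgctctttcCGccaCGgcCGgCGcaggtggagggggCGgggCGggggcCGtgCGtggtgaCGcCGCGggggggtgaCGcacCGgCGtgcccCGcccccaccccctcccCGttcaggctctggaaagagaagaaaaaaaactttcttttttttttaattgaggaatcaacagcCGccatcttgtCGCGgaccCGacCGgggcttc
They hold 47, 45, 46 and 36 CpG in that order. Over 65 bins with a promoter, the mean CpG count and the log2 fold change of contacts within the bin had r = -0.03, a description over bins that share libraries.

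In control cells the region had high counts of short-range contacts. Levels are counts per 1000000 listed contacts with TMM-scaled library sizes (CPM), and every bin is 50 kb. They were not corrected for mappability, base content or copy number. A difference in level between bins or regions may therefore not be one of contact frequency. Contacts within a bin ranged from 5.32 CPM in the bin with the end of PDPK1, at 2600001 to 2650000, to 193 CPM at 700001 to 750000, a bin shared by FBXL16, METRN and 4 other genes. The median was 72.1 CPM, against 7.35 over all within-bin contacts of the table, 13.2 in the rest of chromosome 16, 74.4 in the terminal 5 Mb of 16q and 88.0 in that of 19p. The region also had 1.05 listed pairs 200 to 450 kb apart for each listed bin, against 0.159 over the table. The list holds pairs above an abundance minimum, so this compares how many pairs exceed it. Contacts between bins took 17.3% and 17.1% of the region's listed contacts in control libraries 1 and 2. The control libraries were not alike here. Within-bin contacts were higher in control library 2 than in control library 1 in 85 of 94 bins, with a median log2 difference of 0.11, against -0.01 over all bins of the table. Between the knockdown libraries the median log2 difference was 0.04, with library 2 higher in 70 of 94 bins. Whether this shift between control libraries has a part in the differences below was not tested.

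**Figure D1:**
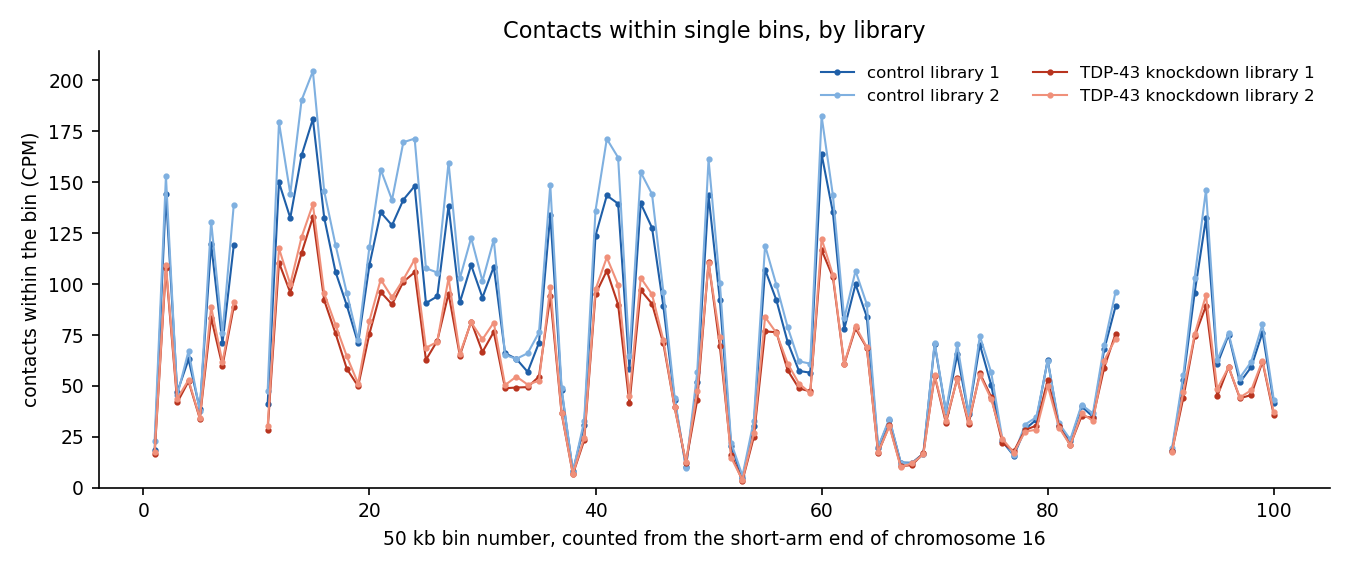
Contacts within each 50 kb bin (y axis, CPM) against the bin number from the short-arm end (x axis), as points joined by lines, for each of the 4 libraries; gaps are the 6 bins not analysed. Both knockdown libraries lie below both control libraries in 89 of 94 bins, with the widest gaps where control levels are high, and control library 2 lies above control library 1 in 85.

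The share of a library's listed contacts that fell in the region was 0.847% and 0.906% in control libraries 1 and 2. In knockdown libraries 1 and 2 it was 0.720% and 0.739%. The groups did not overlap, and the knockdown mean was 0.147 percentage points lower (0.730% ± 0.0135 against 0.876% ± 0.0418, SD, n = 2 per group). This share needs no scaling beyond the library's total of listed contacts. An exact permutation test of 2 libraries against 2 cannot give a p below 0.333, so these shares are given as values.

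In the fit over all pairs (edgeR quasi-likelihood, TMM scaling, adjusted p under 0.05), 153 of the 403 pairs were lower in the knockdown and 2 were higher. The background over every listed pair was 10.5% lower and 5.76% higher. Within bins 80 of 94 were lower and 1 higher (14.3% and 7.40% over the table), and between bins 73 of 309 were lower and 1 higher (5.84% and 3.76% over the table). In 260 of the 403 pairs both knockdown libraries lay below both control libraries, and in 21 above them, against 26.3% and 29.8% of all pairs. Within bins it was 89 below and 2 above of 94 (28.5% and 31.4% over the table), and between bins 171 and 19 of 309 (23.8% and 27.8%). The region's log2 fold changes had a median of -0.26, with -0.38 within bins and -0.23 between bins, against 0.02 for the table. TMM factors were 0.966 and 0.944 in control libraries 1 and 2 and 1.05 and 1.04 in knockdown libraries 1 and 2. A larger factor lowers a library's CPM, so TMM fold changes lie below those from listed totals alone. Among the 155 pairs past the threshold the median size was 0.43 (log2), and 58 of the lower pairs fell by more than 0.5. Without knockdown library 1, the shallowest, 22 between-bin pairs passed in place of 74, without knockdown library 2 it was 44, and without control library 2 it was 46. In all, 84 pairs passed without knockdown library 1, every one of them lower.

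Bins with more contacts in control cells had lower fold changes. Over the 94 bins the log2 control level and the log2 fold change had r = -0.73 (bins share libraries and scaling). Once the trend with abundance had been removed by a loess fit per library, r was -0.04. The control level also enters the fold change, and the loess fit is made to remove such a trend, so neither r is a test. With the trend removed, 128 pairs were lower and 2 higher, against 5.97% and 4.98% over the table, and the median log2 fold change was -0.21. Within bins 44 were lower and 1 higher, at a median of -0.10 (5.12% and 7.89% over the table), while between bins 84 were lower and 1 higher, at a median of -0.30 (7.01% and 1.44% over the table). In both fits 116 pairs were lower and the same 2 were higher. The authors' deposited table gives 130 lower and 2 higher pairs here (5.97% and 5.03% over the table). Of these, by the authors' deposited table, 44 lower and 1 higher were within bins (5.12% and 8%) and 86 lower and 1 higher between bins (7% and 1.43%). The terminal 5 Mb of 16q and of 19p, which share the libraries and the scaling, had 45.0% and 34.5% of pairs lower with TMM, and 43.1% and 30.0% with the trend removed, against 38.0% and 31.8% here. No difference between these chromosome ends was tested.

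**Figure D2:**
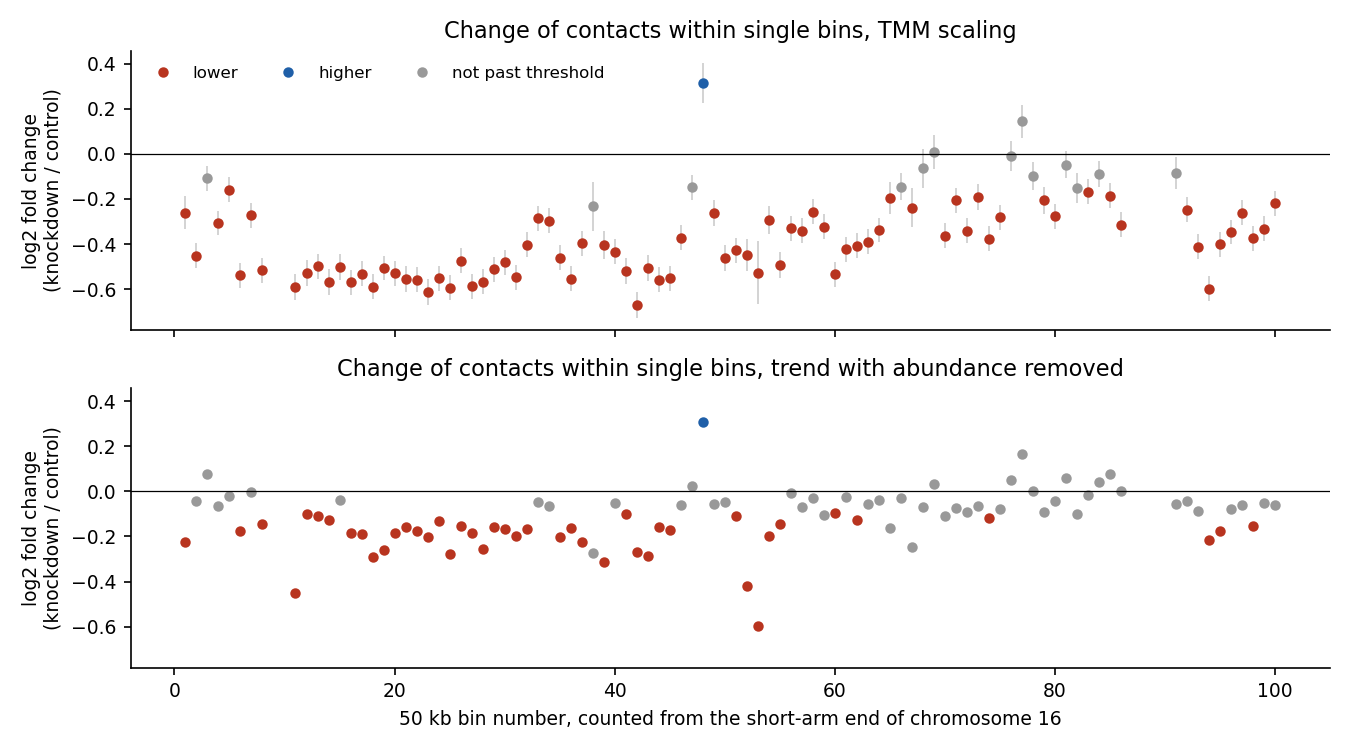
Log2 fold change (knockdown over control) of contacts within each bin against the bin number from the short-arm end, with TMM scaling (top; bars are standard errors) and with the abundance trend removed (bottom). Red points passed as lower, blue as higher, grey did not pass; 80 bins are red at the top and 44 at the bottom, most of the latter among the first 60 bins.

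Windows of 0.5 Mb were compared, counting pairs with both bins in the window. The lowest median between-bin log2 fold changes were at 0.5 to 1 Mb (-0.38) and 1 to 1.5 Mb (-0.37). There 12 of 24 and 17 of 29 between-bin pairs were lower, and every one of the 53 pairs had a log2 fold change below 0. Over all listed between-bin pairs the median was 0.02, and -0.04 with the trend removed. The share of those pairs below 0 was not computed. Pairs in these windows share bins and libraries. Within bins 10 of 10 contacts were lower in each of these windows, and 9 and 10 with the trend removed. From 1.5 to 3 Mb the windows' medians between bins were -0.26, -0.19 and -0.15, with 4 of 21, 7 of 27 and 3 of 18 pairs lower. From 3 to 4.5 Mb the medians were 0.01, 0.06 and 0.08, and 2 of 50 between-bin pairs were lower, none of them beyond 4 Mb. With the trend removed those medians were -0.07, -0.02 and 0.03, so the sign turned in the windows at 3 to 3.5 and 3.5 to 4 Mb, with 12 of 16, 12 of 21 and 5 of 13 pairs below 0. Within bins 17 of 26 were lower there, and 2 with the trend removed. In the last window, 4.5 to 5 Mb, 4 of 33 between-bin and 9 of 10 within-bin contacts were lower, and in the first, next to the telomere, 0 of 23 and 7 of 8. Shares of the region's own listed contacts do not depend on the scaling of libraries. The window at 1 to 1.5 Mb held 15.8% and 16.3% of the region's contacts in control libraries 1 and 2 and 14.6% and 14.8% in knockdown libraries 1 and 2. The window at 3.5 to 4 Mb held a larger share in the knockdown, with 5.66% and 5.38% in control and 6.47% and 6.18% in knockdown libraries. In neither window did the groups overlap. The region's share of the library's listed contacts fell, so a larger share of the region is not a gain in contacts. Within bins 7 of 10 contacts of the window at 3.5 to 4 Mb were lower with TMM, and 1 with the trend removed. Control levels differed between these windows too, with a median within-bin level of 126 CPM at 1 to 1.5 Mb and 36.9 CPM at 3.5 to 4 Mb, and the part of abundance was not tested beyond the trend removal above.

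**Figure D3:**
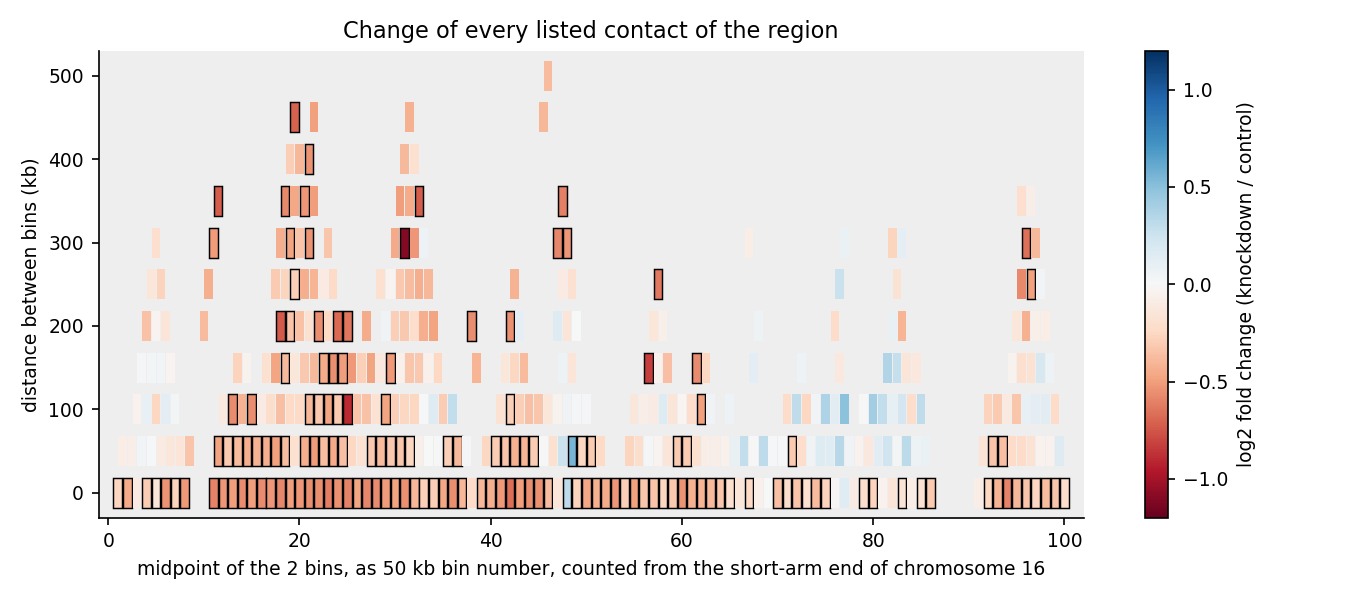
Every listed pair of the region as a rectangle at the midpoint of its bins (x axis, bin number from the short-arm end) and their distance (y axis, kb), coloured by log2 fold change (red lower, blue higher in the knockdown; grey background, no listed pair); black outlines mark pairs past the threshold. Outlined red pairs reach 450 kb around bins 15 to 25, while around bins 62 to 86 few between-bin pairs are outlined and several are pale blue.

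The largest fall joined the bin at 1350001 to 1400000, with TSR3, GNPTG and part of UNKL, a RING finger gene, to the bin 300 kb away at 1650001 to 1700000, with the 3′ part of CRAMP1, a gene of a chromatin-associated protein, and JPT2. Its counts were 361 and 380 in control libraries 1 and 2 and 141 and 162 in knockdown libraries 1 and 2, or 2.36, 2.47, 1.17 and 1.09 CPM. The groups were far apart and the replicates close, and the log2 fold change was -1.10 (SE 0.23), or -1.19 with the trend removed. The start-site bins of the GNPTG and JPT2 promoters printed above are the bins of this pair. Contacts within the first bin, at 91.0 and 103 CPM in control and 64.9 and 65.9 in knockdown libraries, had a log2 fold change of -0.57, and within the second one of -0.30. With the trend removed the first kept its call at -0.26, while the second was at -0.07 and did not pass.

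CACNA1H encodes a T-type voltage-gated calcium channel. Its bin at 1150001 to 1200000 had 12 listed partners in the region, of which 9 were lower and 0 higher. In all 12 both knockdown libraries lay below both control libraries. With the bin of the tryptase gene TPSD1, 100 kb away, contacts were 6.23 and 6.06 CPM in control and 3.12 and 3.44 CPM in knockdown libraries. The groups did not overlap, and the log2 fold change was -0.90 (SE 0.14). The bin of SSTR5, a somatostatin receptor gene, and C1QTNF8 at 1050001 to 1100000 also had 9 lower pairs, of 11 partners. Its contacts with the TPSD1 bin were 4.34 and 3.53 CPM in control and 2.32 and 2.54 CPM in knockdown libraries (log2 fold change -0.69, SE 0.17), a call lost without knockdown library 1. Summed over its partners, the CACNA1H bin had 80.9 and 89.6 CPM in control and 58.5 and 62.9 CPM in knockdown libraries. Over all bins of the region the largest number of lower partners was 9, and 48 of the 94 bins with a partner had a lower one. These counts by bin were not compared with all bins of the table. A bin with more listed partners can also have more lower ones.

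KCTD5, a cullin adaptor gene, and PRSS27 met PRSS22 and FLYWCH2 150 kb away at 3.26 and 4.45 CPM in control and 2.33 and 2.02 CPM in knockdown libraries (log2 fold change -0.83, SE 0.18). The control libraries differed more from each other than the knockdown libraries did, and the groups did not overlap. The pair of CHTF18, a clamp loader subunit gene, and GNG13, a G-protein gamma subunit gene, with SOX8 and LMF1 had a log2 fold change of -0.74. That of UNKL and CLCN7, a lysosomal chloride transporter gene, with MAPK8IP3, a JNK scaffold gene of axonal transport, and MRPS34 had one of -0.73, and that of AXIN1, a scaffold of the Wnt pathway, and NME4 with METRN and FBXL16 one of -0.73. FBXL16 with CACNA1H, 450 kb apart, had -0.71, and MGRN1 and UBALD1 with PPL -0.66. In each of these the knockdown libraries were below the control libraries. Each of these last 5 lost its call when at least 1 of the libraries was left out. Without knockdown library 1, 9 of the 13 named pairs lost theirs.

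**Figure D4:**
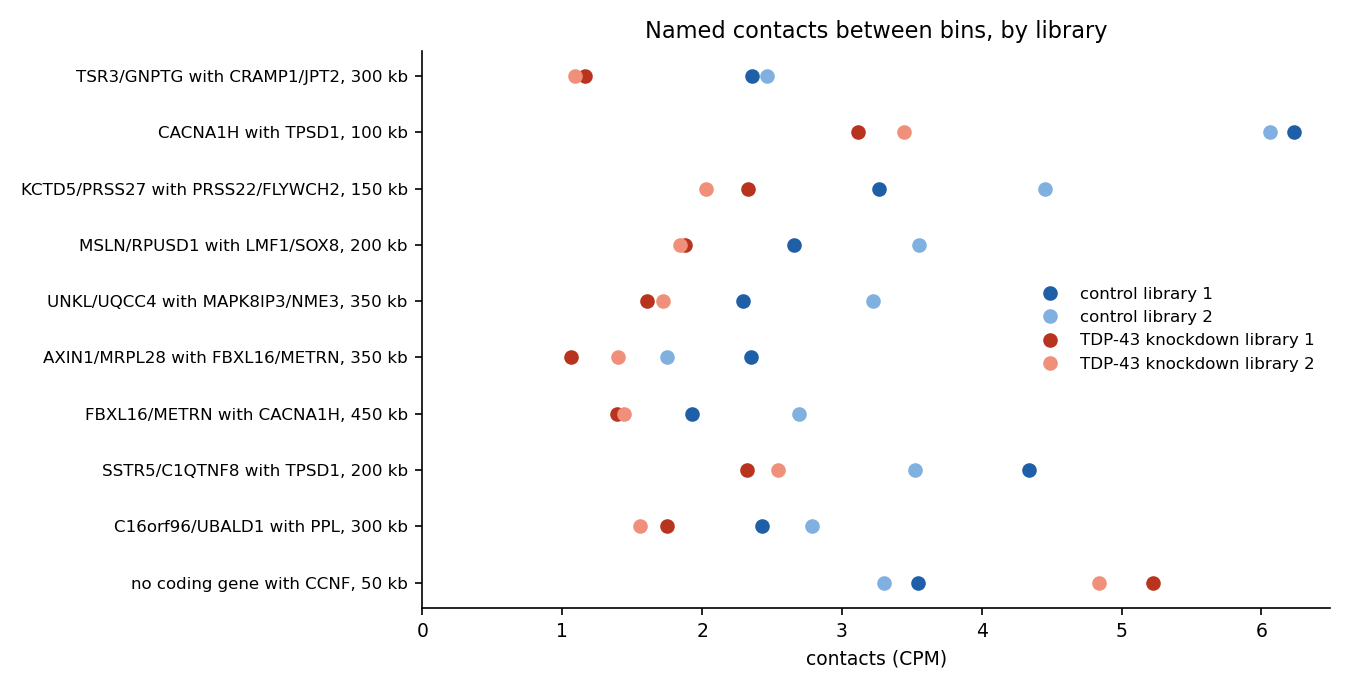
Contacts (x axis, CPM) of each pair of different bins described by name in each of the 4 libraries (points), labelled by up to 2 genes of each bin and the distance. Knockdown points lie left of control points in the first 9 rows and right of them in the last, the pair of CCNF and its neighbouring bin.

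The largest fall within a bin was at the junction of TSC2, whose product tuberin restrains mTOR complex 1, and PKD1. At 2050001 to 2100000, which holds the 3′ ends of both genes, contacts were 139 and 162 CPM in control and 90.0 and 99.7 CPM in knockdown libraries. The groups did not overlap, and the log2 fold change was -0.67 (SE 0.06), or -0.27 and still past the threshold with the trend removed. Contacts were lower within the bin of the TSC2 start (log2 fold change -0.52) and within that of the PKD1 start (-0.51), in both fits. PKD1 has near-identical pseudogene copies elsewhere on 16p, so its counts may be split among copies. The lowest trend-removed value within a bin belonged to the bin at 2600001 to 2650000, which holds the end of PDPK1, the gene of an upstream kinase of AKT. There contacts were 4.74 and 5.90 CPM in control and 3.50 and 3.87 CPM in knockdown libraries (log2 fold change -0.53, SE 0.14; -0.59 with the trend removed). PDPK1 also has a near-identical copy nearby, and the same limit applies.

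The 2 pairs that rose share the bin at 2350001 to 2400000, which holds no protein-coding gene and lies inside ABCA17P, a transcribed pseudogene between ABCA3 and CCNF. Its contacts with the adjoining CCNF bin were 3.54 and 3.30 CPM in control and 5.22 and 4.84 CPM in knockdown libraries (log2 fold change 0.56, SE 0.14). Within the bin contacts were 10.3 and 9.86 CPM in control and 12.3 and 12.7 CPM in knockdown libraries (log2 fold change 0.31, SE 0.09). Both were higher with the trend removed too (0.49 and 0.31), and neither passed without knockdown library 1. The rise within the bin also lost its call without knockdown library 2. The bins on both sides did not rise. The next bin inwards, with CCNF, was lower (log2 fold change -0.26, or -0.06 and no call once the trend was removed), and the ABCA3 bin before it was at -0.15 and did not pass.

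CREBBP covers 4 bins. Of its 4 within-bin contacts 1 was lower, that of the 3′ bin shared with TRAP1, a mitochondrial chaperone gene (log2 fold change -0.28), and with the trend removed none passed. None of the 6 contacts between CREBBP bins passed in either direction, with log2 fold changes from -0.13 to 0.50. Summed over those 6 pairs, contacts were 17.8 and 16.9 CPM in control and 19.5 and 19.4 CPM in knockdown libraries, so the groups did not overlap and the knockdown was higher. ADCY9, an adenylate cyclase gene next to CREBBP, had 21.7 and 23.5 CPM in control and 25.7 and 25.4 CPM in knockdown libraries over the 6 pairs between its bins, again with the knockdown higher. None of these passed, and the log2 fold changes ran from 0.03 to 0.36. Within bins 2 of its 4 contacts were lower, and none with the trend removed. The between-bin sums of CREBBP and ADCY9 are with TMM only. For all listed pairs 50 kb apart the median log2 fold change was 0.09 with TMM and 0.03 with the trend removed. For those 100 to 150 kb apart it was -0.01 and -0.08. Of all listed between-bin pairs, 27.8% had both knockdown libraries above both control libraries. Whether the 2 genes stand apart from this background was not tested. LMF1, a lipase maturation gene nearer the telomere, was covered by 3 bins. Its 3 within-bin contacts were lower in both fits, and 1 of the 3 pairs between its bins was lower. Those 3 summed to 24.0 and 26.5 CPM in control and 20.0 and 21.5 CPM in knockdown libraries.

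The pairs were then read by distance. With TMM, 32 of 89 pairs at 50 kb, 17 of 120 at 100 to 150 kb and 24 of 99 at 200 to 450 kb were lower, against 5.64%, 4.62% and 7.40% over the table. The median log2 fold changes were -0.19, -0.17 and -0.35. With the trend removed they were -0.20, -0.25 and -0.42, with 31, 20 and 33 pairs lower. Over the table the trend-removed medians were 0.03, -0.08 and -0.19, with 5.34%, 6.64% and 10.6% of pairs lower. At 300 kb 7 of 19 and at 350 kb 5 of 11 pairs were lower, while the only listed pair at 500 kb did not pass (log2 fold change -0.38). The make-up by distance was compared next, over listed contacts only. Of 4950 possible pairs of different bins in the region 309 are listed, so these are not shares of all contacts. Between-bin contacts took 17.3% and 17.1% of the region's contacts in control libraries 1 and 2 and 19.4% and 19.3% in knockdown libraries 1 and 2. Over the table that share was 15.1% in both control libraries and 16.2% in both knockdown libraries. Contacts at 200 kb and beyond made up 3.29% and 3.26% of the region's total in control and 3.45% and 3.43% in knockdown libraries. Over the table that share was 2.20% and 2.22% in control and 2.22% and 2.24% in knockdown libraries. In the region the knockdown libraries lay above the control libraries in both shares, and over the table in the between-bin share. Over the table the share at 200 kb and beyond was 2.224% in control library 2 and 2.225% in knockdown library 1. These were closer to each other than the control libraries were. At 500 kb or more the share over the table was 0.218% and 0.221% in control and 0.210% and 0.212% in knockdown libraries.

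**Figure D5:**
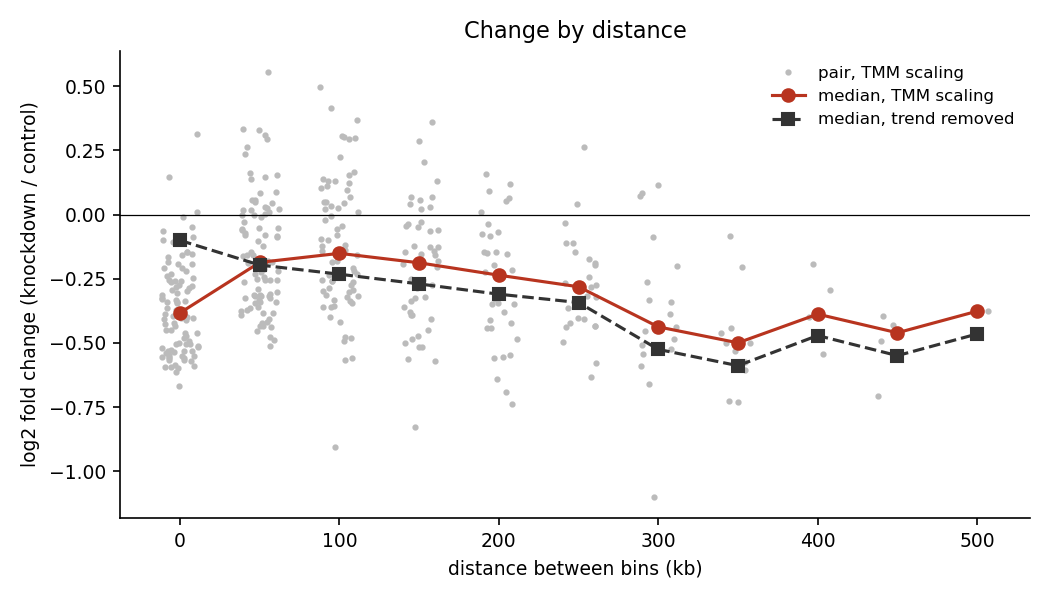
Log2 fold change (knockdown over control) against the distance between bins (kb; 0 is within a bin; points are spread sideways for legibility) for all 403 pairs, with the median at each distance for TMM scaling (red) and with the trend removed (black, dashed). The red medians lie at -0.38 within bins and -0.19 at 50 kb, and the red median is -0.44 at 300 kb, with 19 pairs, and -0.50 at 350 kb, with 11.

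By gene, 171 of 176 named protein-coding genes with a listed bin overlapped a lower within-bin contact with TMM and 0 a higher one. With the trend removed it was 104 genes, or 59.1%, and 0 were higher. Neither these shares nor those by gene number below were compared with all genes of the table. Over all within-bin contacts 14.3% were lower with TMM and 5.12% with the trend removed. A gene over several bins counted if any of them was lower, so its share is not like that of single bins. Neighbouring genes share bins, so genes are not independent, and the 96 listed genes with a known start bin start in 54 bins. Bins with 5 or more genes had a median control level of 139 CPM, and 15 of 15 were lower, 10 of them also with the trend removed. Bins with 1 or 2 genes had a median level of 59.7 CPM, and 39 of 49 were lower, 19 with the trend removed. Gene number and log2 fold change had r = -0.37 over 94 bins, and -0.04 with the trend removed.

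The lists below were read against those shares. A list near 97.2% lower with TMM or 59.1% with the trend removed does not stand apart from the region's genes. Genes of different lists can share a start bin, as STUB1 with RHOT2, MLST8 with E4F1, RGS11 with PDIA2 and NTHL1 with TSC2. The same measurement is then given again. Among signalling genes, 11 of 11 overlapped a lower within-bin contact, and 10 with the trend removed. They include TRAF7, a RING finger gene of MAP kinase signalling (log2 fold change -0.56 within the bin of its start), MLST8, an mTOR complex subunit (-0.55), SSTR5 (-0.56) and RGS11, a G-protein regulator (-0.54). Of 8 ubiquitin and protein folding genes with a listed bin all 8 were lower, also with the trend removed, among them STUB1, a chaperone-associated ubiquitin ligase (-0.57), PDIA2 (-0.54) and RAB40C (-0.53). Of 9 mitochondrial genes 9 were lower, and 7 with the trend removed, with RHOT2, a mitochondrial transport GTPase, at -0.57 and the ribosomal protein gene MRPL28 at -0.52. DNA repair and cell cycle genes were lower in 8 of 8 (6 with the trend removed), with EME2 at -0.55, PKMYT1 at -0.53 and NTHL1, a base excision glycosylase, at -0.52. For lysosome and transport genes it was 5 of 5 (4), with ATP6V0C, a proton pump subunit, at -0.43, and for tryptases and other proteases 9 of 9 (6), with TPSB2 and TPSAB1, near-identical copies in 1 bin, at -0.59.

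Neuronal genes were lower in 11 of 11 with TMM and 7 with the trend removed. BAIAP3, a gene of dense-core vesicle release, had a log2 fold change of -0.59 within its bin, CASKIN1, a synaptic scaffold, shares that of TRAF7 (-0.56), and SOX8 had -0.53. The bin of METRN, a neurotrophic factor, had 181 and 204 CPM in control and 133 and 139 CPM in knockdown libraries (-0.50), but -0.04 and no call with the trend removed. RNA processing genes were lower in 6 of 6 (3), with RPUSD1 at -0.57 and THOC6, a subunit of an mRNA export complex, at -0.42 (-0.03 and no call with the trend removed). The polycystin and ciliary genes were lower in 4 of 4 (3), with ANKS3 at -0.40 and IFT140, a gene of retrograde ciliary transport, at -0.29. The IFT140 start bin was at -0.05 with no call once the trend was removed, and lost its call without knockdown library 1. Of the 3 bins that IFT140 covers, 2 kept a call with the trend removed.

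The alpha-globin locus, chromatin and innate immunity lists had few calls once the trend was removed. Of 12 genes at and around the alpha-globin cluster 12 were lower with TMM and 2 with the trend removed. HBA1 and HBA2, near-identical copies between which counts may be split, and the other globin genes share the bin at 150001 to 200000, with 63.0 and 67.2 CPM in control and 52.3 and 53.0 CPM in knockdown libraries. Its log2 fold change was -0.31 (SE 0.06), and -0.07 without a call once the trend was removed. The bin of MPG, a base excision glycosylase, and RHBDF1 had -0.45, and -0.04 without a call once the trend was removed. None of the 23 between-bin pairs within the first 0.5 Mb passed. Of 15 chromatin and transcription factor genes with a listed bin 12 were lower with TMM and 3 with the trend removed. The zinc finger genes ZNF205 and ZNF213 (-0.39, and -0.06 with the trend removed) and the bin of the CRAMP1 start (-0.29, and -0.05) did not pass in the second fit, while E4F1, a transcription factor gene of cell survival, did (-0.55, and -0.17). The CREBBP start bin did not pass in either fit, at 28.8 and 31.1 CPM in control and 28.4 and 27.6 CPM in knockdown libraries (log2 fold change -0.10, SE 0.06). The 4 innate immunity genes were all lower with TMM, and 1 with the trend removed. IL32 had -0.41 and kept its call with the trend removed (-0.13). TNFRSF12A had -0.42 and NLRC3 -0.34, which became -0.03 and -0.09 with no call once the trend was removed, while the start bin of MEFV, which encodes pyrin, was at -0.15 and did not pass.

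The 5 bins just inside the limit of 5 Mb had log2 fold changes within the bin from -0.37 to -0.22, and the 5 bins just outside from -0.35 to 0.22. The nearest outside, with NAGPA and then ALG1, had -0.26 and -0.35, and the next had -0.01 and 0.22, with no protein-coding gene, and -0.05, with RBFOX1.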

How the data were processed

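Per the labels, 2 control and 2 TDP-43 knockdown libraries were made. The authors' deposited table gives raw contact counts for pairs of 50 kb bins. HiC-Pro and the build hg38 are named, per the submitters' processing notes, without versions. Per the file headers, the table also holds the authors' log2 fold change and log2 mean abundance, an F statistic (a score), a p-value and an adjusted p-value. It lists abundant pairs only, so its totals are not library depth.

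Counts of all 89239 pairs were fitted with edgeR 4.0.16 (R 4.3.3), TMM, filterByExpr (0 pairs removed), glmQLFit and glmQLFTest, with Benjamini-Hochberg adjustment at 0.05. The trend with abundance was removed with a loess offset per library (limma 3.58.1, span 0.3), which gave the authors' fold changes to within 0.00237 (log2). The scripts were first tested on simulated data. DESeq2 1.42.0, a replicate block, TMM within distance classes, a threshold of 0.01, no filter and leaving out each library were alternatives. Same-numbered libraries did not deviate together (r = 0.02), so the numbers were not taken as pairs. Gene positions and promoters are RefSeq, GRCh38.p14. A gene's start bin was taken from the promoter table or, for a gene within 1 bin, from its position.

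The region, the 12 lists of 107 genes and the naming rule were chosen with earlier results of these data known. The rule took the 10 largest decreases and up to 10 increases past the threshold without overlap of groups, neighbours merged, up to 4 genes per list, and TSC2, PKD1, CREBBP, HBA1, HBA2, UNKL and CRAMP1. ADCY9, LMF1, PDPK1 and the pairs' other genes were added after values were seen. Results of 1 gene and of 1 pair that the rule took are not reported here. Tables and plots were made in Python 3.11.15 (pandas 2.3.3, numpy 2.4.6, matplotlib 3.10.9).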

Additional observations from a re-analysis of the deposited data

How the results depend on the processing

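The region's median log2 fold change stayed below 0 under all 10 alternatives. These are not 10 separate checks. The filter removed 0 pairs, so the fit without it repeats the main fit, and the authors' table nearly repeats the trend-removed fit. The differences in the 3 shares of contacts kept their sign under all 5 of theirs. Leaving out 1 library could not change that sign, as the groups did not overlap. Leaving out 1 library at a time gave 84 to 174 called pairs in all (155 with all libraries), 22 to 90 between bins (74 with all), and a median log2 fold change of -0.33 to -0.21. Such fits leave 1 library in a group, which is assumed to vary like the others. Within bins 45 contacts were called with the abundance trend removed, and 45 in the authors' table, against 81 with TMM. Between bins the 0.01 threshold left 49 calls. With the replicate block 161 pairs were called, and the block ended no call of a named pair. Of the 13 named pairs, 4 kept their calls under all 10 alternatives: GNPTG with JPT2, CACNA1H with TPSD1, KCTD5 with PRSS22, and the TSC2 and PKD1 bin. With TMM within distance classes 2 lost theirs. With TMM, counting every listed pair of a gene left each list's count of called genes as it was. Added pairs can only add called genes. Outside the chromatin and transcription factor list, every gene with a listed bin was already called from its within-bin contacts. Among those genes the count could not change, so the unchanged counts are no check of their lists. The same count with the trend removed was not made. Pairs below the listing minimum are not in the table.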
